A study of Mus musculus with 27 samples.

Results

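The genes described here were 34 genes of glucose uptake, glycolysis, lactate handling and the hypoxia-inducible factor (HIF) pathway, chosen by gene symbol. They filled 35 of the 55483 rows of the deposited table of read counts, because the symbol Aldoa labels a second row of low counts. The cells were RAW264.7, an established mouse macrophage line grown in high-glucose medium under standard conditions, and the labels name no low-oxygen treatment. Cells were harvested after 6 h in 1 of 3 treatments: DMSO, the solvent, LPS at 1 µg/ml, or LPS together with the tanshinone mimic TM7nox at 10 µM, written LPS+TM7nox below. LPS (lipopolysaccharide) is a bacterial cell wall component that activates macrophages, and TM7nox is a small molecule made to hinder the RNA-binding protein HuR from binding its RNAs. Each treatment had 4 libraries of total RNA, 4 of RNA precipitated with an anti-HuR antibody (ribonucleoprotein immunoprecipitation, RIP) and 1 of RNA precipitated with control IgG, numbered replicate 3 in every treatment. No group received TM7nox without LPS. The labels do not say that replicates were separate cultures, so p-values measure the spread between these samples, which may be technical.

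Glucose enters the cell through transporters such as Slc2a1 (GLUT1), is phosphorylated by hexokinases and is broken down to pyruvate by the glycolytic enzymes. Phosphofructokinase is the committed step, and the bifunctional enzymes Pfkfb3 and Pfkfb4 set the level of its activator, fructose 2,6-bisphosphate. Hif1a encodes the oxygen-regulated subunit of HIF-1, which Egln prolyl hydroxylases mark for the Vhl ubiquitin ligase, and many glycolytic genes are HIF-1 targets. Macrophages activated by LPS are known to stabilise HIF-1α and to raise glycolysis. HuR (Elavl1) binds U-rich and AU-rich stretches, mostly in 3′ untranslated regions (UTRs), and is known for stabilising short-lived mRNAs, Vegfa and Hif1a among those reported.

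The sites below show what such stretches look like in the genes that the anti-HuR results turn on. For each gene the 30 bases of the 3′ UTR with the most AUUUA pentamers, and then the most U, were read from the representative transcript of the GENCODE M39 annotation on GRCm39. Capitals mark AUUUA, which is a sequence match and not a measured binding site. The first 8 genes were precipitated above their RNA level in DMSO, and Gapdh and Eno1 were precipitated below it and are shown for contrast.
Vhl: uuuuguaaaguauaauuuuuuAUUUAuuuu
Eno2: uAUUUAUUUAUUUAUUUAUUUAUUUAUUUA
Slc16a1: uuuucucuugguuuuugauaguuccAUUUA
Hk2: uuuuuuuaAUUUAuguuugaaAUUUAUUUA
Pfkfb3: agaugugcuAUUUAUUUAUUUAauauguau
Vegfa: uuaauuuuaauauuuguuaucAUUUAUUUA
Hif1a: AUUUAaaaugcaccuuuuuAUUUAUUUAuu
Slc2a1: auAUUUAuauauuuuuugguugucaauauu
Gapdh: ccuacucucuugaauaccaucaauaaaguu
Eno1: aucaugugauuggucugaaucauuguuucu
The Eno2 site, at chr6:124737722-124737751 on the minus strand, holds 7 overlapping AUUUA pentamers in an unbroken run. The Pfkfb3 site at chr2:11476855-11476884 (minus) and the Hif1a site at chr12:73992772-73992801 (plus) hold 3 each, as does the Hk2 site at chr6:82703615-82703644 (minus). The Vegfa site lies at chr17:46328104-46328133 (minus) and holds 2. The Vhl, Slc16a1 and Slc2a1 sites lie at chr6:113607641-113607670, chr3:104564052-104564081 and chr4:118994391-118994420, all on the plus strand, with 1 each. Neither the Gapdh 3′ UTR (site at chr6:125138827-125138856, minus) nor the Eno1 3′ UTR (site at chr4:150333176-150333205, plus) holds an AUUUA. Other genes precipitated below their RNA level do hold it. The sites of Pfkp and Hk3, chosen by the same rule, hold 2 each. Of the 19 genes called lower in DMSO, 47.4% hold an AUUUA, so its presence does not separate the sides.

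RNA libraries held 2.73 to 28.3 M counts (M, mega), RIP libraries 19.8 to 41.4 M and IgG libraries 8.87 to 24.5 M. RNA DMSO replicate 1 was the shallowest, at 2.73 M, and stood apart from the other DMSO libraries for several of the genes below. All 8 macrophage markers (Cd68, Lyz2, Csf1r and others) were detected, with a summed level of 2537 to 5923 CPM (counts scaled to 1 M per library) in each RNA library. Summed markers of epithelial cells, fibroblasts and lymphocytes stayed at or under 0.34 CPM in every RNA library, and those of neutrophils reached 3.51 CPM, with S100a9 at 0 throughout. Markers moved with treatment in RNA: of the 8 macrophage markers 5 were called higher and 1 lower in LPS against DMSO, and 3 lower in LPS+TM7nox against LPS, where 42% and 13.8% of all genes tested were called. In RIP 4 were called higher and 1 lower, and 4 lower, where 44.7% and 16.2% of all genes were called. The only neutrophil marker tested, S100a8, had 5.07 and -3.25 in these comparisons, both called in RNA. Their part in the results below was not tested. The 34 genes took 0.902% ± 0.165 (SD, n = 12) of the counts of RNA libraries, 0.306% ± 0.0267 (n = 12) of RIP libraries and 1.04% ± 0.0588 (n = 3) of IgG libraries. Exons of 23 of the genes overlap those of a gene on the other strand, Vhl, Eno2, Hif1a, Slc2a1 and Vegfa included, and the use of strand in counting is not given in the sources used here, so reads of such pairs cannot be told apart. Of the genes with near-identical copies, Eno1 shared the most with its copy Eno1b, which held 4.30% to 14.7% of their joint counts per library, and for the others that share did not pass 1.67%.

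Levels are in CPM, on 1 scale over all 27 libraries. A level per kilobase depends on the length taken for a gene, so it is given per kilobase of the representative GENCODE M39 transcript, a length chosen after seeing the data, and compared with that per kilobase of all annotated exons. In DMSO RNA, Pkm (pyruvate kinase) stood at 785 ± 144 CPM per kb of transcript (SD, n = 4), Gapdh at 504 ± 121, Ldha (lactate dehydrogenase) at 391 ± 52.9, Eno1 (enolase) at 389 ± 182 and Aldoa (aldolase) at 362 ± 22.1. Pgk1 (phosphoglycerate kinase, 153 ± 41.0), Tpi1 (triosephosphate isomerase, 102 ± 21.3), Gpi1 (glucose phosphate isomerase, 102 ± 6.83) and Pgam1 (phosphoglycerate mutase, 51.4 ± 11.5) followed. In this order the libraries of each gene overlapped those of the next, apart from Aldoa above Pgk1 and Gpi1 above Pgam1. Per kilobase of all annotated exons, whose summed length is several times that of the transcript for some genes, Pgk1 (124 ± 33.4) stood above Gapdh (100.0 ± 24.0) and Eno1 (77.6 ± 36.4), so the order among these enzymes rests on the length taken. By either length the regulators were lower, with Hif1a at 10.7 ± 1.56 and Pfkfb3 at 2.59 ± 0.23 CPM per kb of transcript, and the monocarboxylate transporter Slc16a1 (MCT1, 38.2 ± 3.08) stood above the lactate exporter Slc16a3 (MCT4, 14.3 ± 3.09) in DMSO. Egln3 (prolyl hydroxylase 3) had 21 reads and Ldhb 2 reads in all 27 libraries together, so neither was tested. The other 32 genes were tested in RNA, and with the second Aldoa row 33 rows were tested in each comparison that held RIP libraries.

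**Figure D1:**
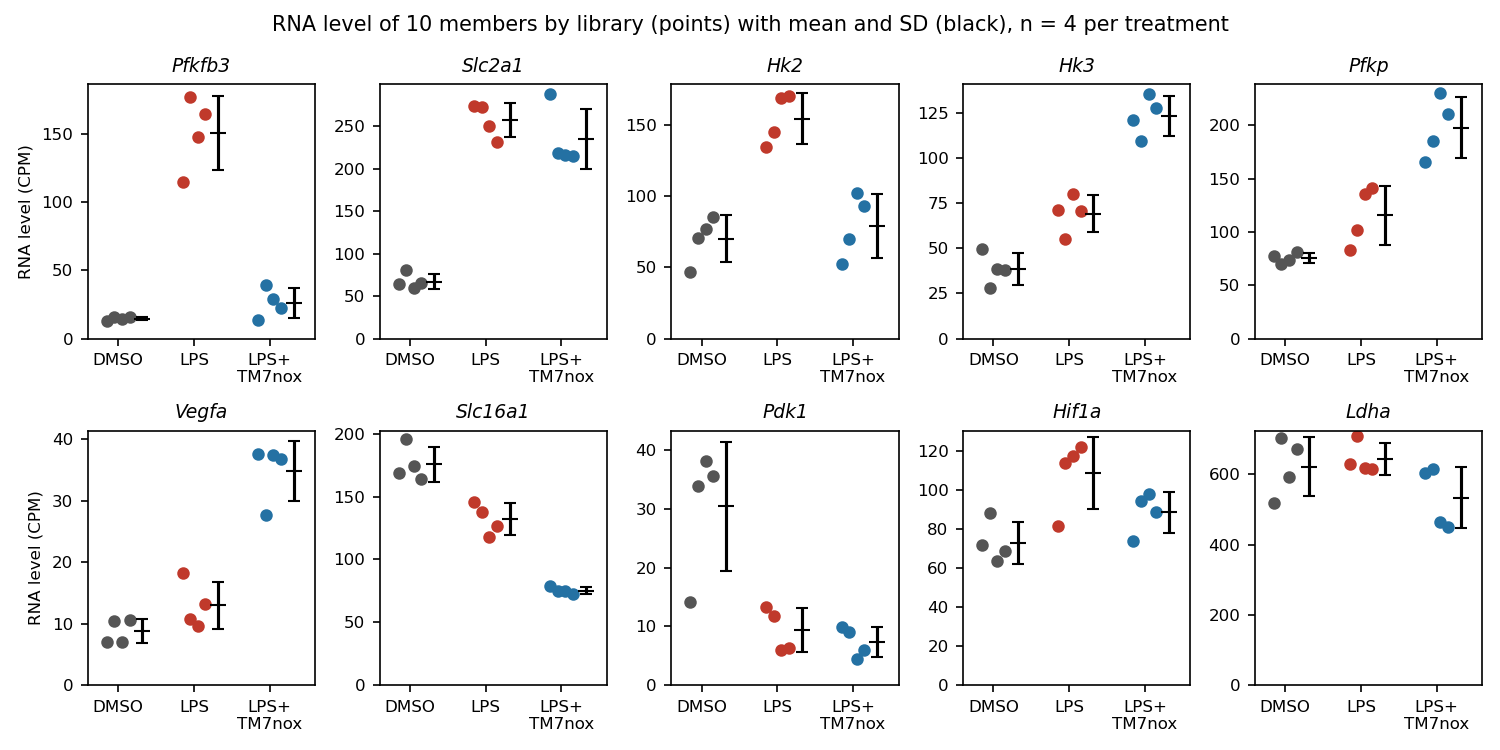
RNA level of 10 genes in CPM (vertical axes, each from 0) for the 4 libraries of each treatment (points), with mean and SD in black. Pfkfb3 lies at 115 to 177 CPM in LPS and at 39.6 or less in every other library, while Ldha overlaps between DMSO and each other treatment.

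The comparison of LPS with DMSO asks how the genes respond to macrophage activation. Pfkfb3, the glucose transporters Slc2a1 and Slc2a6, the hexokinases Hk2 and Hk3, Pfkp and Hif1a rose with LPS, and Pdk1, Egln1, Pfkm and Slc16a1 fell. Calls rest on edgeR's quasi-likelihood test, with Benjamini-Hochberg adjustment over all genes tested and a threshold of 0.05. By that rule 7 of the 32 genes were higher and 4 lower in LPS, where 42% of all 12369 genes tested were called. The median log2 change was 0.06 over the 32 genes and -0.04 over all genes. In these bulk samples, fewer cells that make an RNA and less of it per cell cannot be told apart.

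Pfkfb3, which makes the activator of phosphofructokinase, rose the most. Its RNA level in replicates 1 to 4 was 12.9, 15.6, 14.3 and 15.7 CPM in DMSO and 115, 177, 148 and 164 CPM in LPS, so that the groups lay far apart. The fitted log2 change was 3.33 (SE 0.266, adjusted p = 2.72e-07), a 10.0-fold rise. The glucose transporter Slc2a1 stood at 63.8, 80.5, 59.1 and 65.3 CPM in DMSO and at 273, 273, 251 and 232 CPM in LPS. No LPS library came near a DMSO library, and the rise was 1.91 (SE 0.136, adjusted p = 9.37e-08), or 3.75-fold. Slc2a6, a transporter of activated macrophages' lysosomal membranes, rose by 1.55 (SE 0.267, adjusted p = 0.000322), from 7.63 to 24.0 CPM in DMSO to 34.9 to 58.6 CPM in LPS.

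Of the hexokinases, Hk2, the inducible form, stood at 47.0, 70.5, 77.2 and 85.3 CPM in DMSO and at 134, 145, 169 and 170 CPM in LPS. The groups did not overlap, and the rise was 1.11 (SE 0.199, adjusted p = 0.000463). Hk3, the myeloid form, rose by 0.82 (adjusted p = 0.00152), and Hk1, the housekeeping form, had a change of 0.24 that was not called (adjusted p = 0.132). The platelet-type phosphofructokinase Pfkp rose by 0.58 (adjusted p = 0.00928), the muscle type Pfkm fell by 1.01 (adjusted p = 0.00182) from a low level, and the liver type Pfkl had -0.18 (adjusted p = 0.336).

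Pdk1, the pyruvate dehydrogenase kinase that keeps pyruvate out of the mitochondrial citrate cycle and a known HIF-1 target, went down. It stood at 14.2, 33.9, 38.2 and 35.6 CPM in DMSO and at 13.4, 11.7, 6.05 and 6.36 CPM in LPS. The groups did not overlap, although DMSO replicate 1 came close to the LPS libraries. The fall was by 1.74 on the log2 scale (SE 0.341, adjusted p = 0.000888), and by 1.94 without that library. Its relative Pdk3 had 0.39 (adjusted p = 0.149). Slc16a1, which carries lactate and pyruvate across the membrane, fell by 0.44 (adjusted p = 0.00341), and the lactate exporter Slc16a3 had 0.07 (adjusted p = 0.768). Ldha, which makes lactate from pyruvate, had 0.02 (adjusted p = 0.923).

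In the HIF pathway, Hif1a stood at 71.8, 88.2, 63.4 and 68.6 CPM in DMSO and at 81.8, 114, 118 and 122 CPM in LPS. LPS replicate 1 lay within the DMSO range and the other LPS libraries above it, and the rise was 0.54 (SE 0.143, adjusted p = 0.00728). Egln1, the main oxygen-sensing prolyl hydroxylase, fell by 1.29 (SE 0.156, adjusted p = 1.50e-05), from 21.5 to 28.1 CPM in DMSO to 9.27 to 10.9 CPM in LPS. Vhl had 0.05 and Egln2 0.28, neither called. Of the HIF targets outside glycolysis, the angiogenic factor Vegfa had 0.52 (adjusted p = 0.0612), which passed the test without LPS replicate 2 (0.61, adjusted p = 0.0476) or without LPS replicate 3 (0.64, adjusted p = 0.0313). Bnip3, a mitophagy receptor, had -0.29 (adjusted p = 0.338).

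Of the 10 enzymes of the main sequence, from Gpi1 to Pkm without the phosphofructokinases, none was called in LPS against DMSO, where 42% of all genes were. The 10 had changes between -0.35 for Eno2, the neuronal enolase, and 0.36 for Pgk1. None of them had an unadjusted p under 0.05 either. Pgk1 stood at 387, 268, 216 and 245 CPM in DMSO and at 416, 340, 359 and 360 CPM in LPS, so that only DMSO replicate 1 reached into the LPS range. Its adjusted p was 0.13 with all libraries. Without DMSO replicate 1 its change was 0.60 (adjusted p = 0.00304), and the number of the 32 genes called was 16 in place of 11. The share of all genes called in that fit is not given here, so the higher count cannot be read as particular to these genes. With the replicate number as a block, 15 of the 32 and 52.4% of all genes were called, and those added were Pgk1 (0.40, adjusted p = 0.00621), Pdk3 (0.41, adjusted p = 0.0177), Hk1 (0.24, adjusted p = 0.0205) and the fructose 2,6-bisphosphatase Tigar (-0.37, adjusted p = 0.0429).

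**Figure D2:**
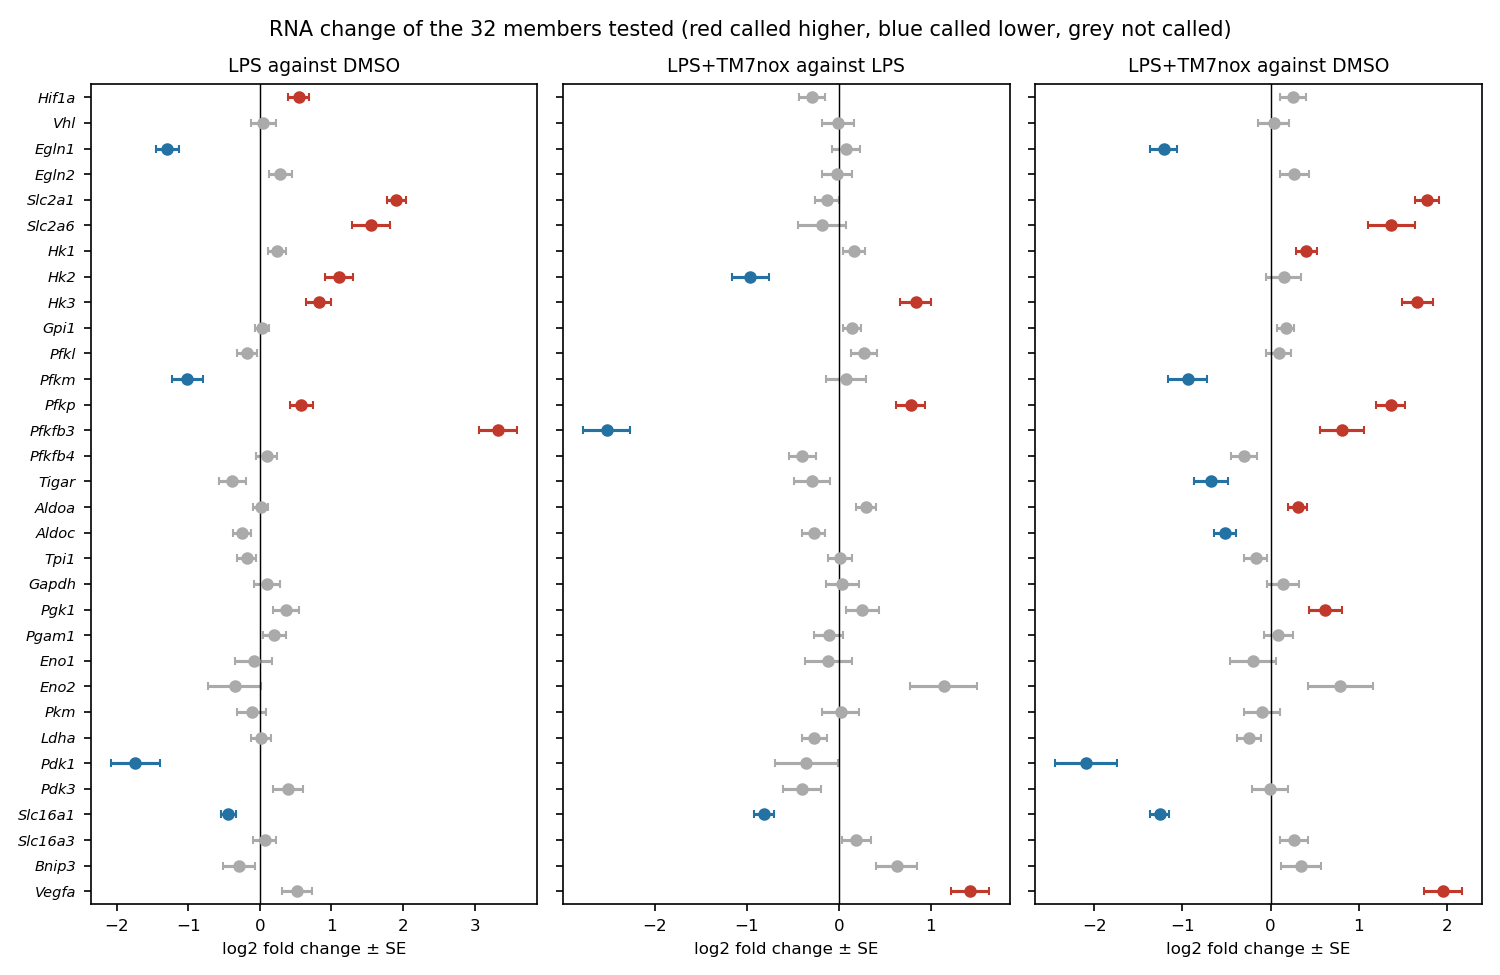
Log2 fold change with SE (horizontal axes, which differ in range between panels) of the 32 genes tested in RNA, for LPS against DMSO, LPS+TM7nox against LPS and LPS+TM7nox against DMSO. Red marks genes called higher, blue lower and grey not called; Pfkfb3 is at 3.33, -2.52 and 0.81 in the 3 panels.

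The comparison of LPS+TM7nox with LPS asks what the compound changes in activated cells. Pfkfb3, Hk2 and Slc16a1 fell, and Vegfa, Hk3 and Pfkp rose. So 3 of the 32 genes were called higher and 3 lower, where 13.8% of all genes tested were called. The median log2 change was 0.0041 over the 32 genes and -0.0026 over all genes. This comparison shares its LPS libraries with the preceding one.

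Pfkfb3 stood at 13.4, 39.6, 29.2 and 22.4 CPM in LPS+TM7nox against 115 to 177 CPM in LPS. Every LPS+TM7nox library lay below every LPS library, and the fall was by 2.52 on the log2 scale (SE 0.254, adjusted p = 3.31e-05), or 5.74-fold. Hk2 stood at 52.6, 69.6, 102 and 93.0 CPM in LPS+TM7nox, below every LPS library, and fell by 0.96 (SE 0.198, adjusted p = 0.00521). Slc16a1 stood at 146, 138, 118 and 126 CPM in LPS and at 78.6, 74.7, 74.8 and 72.5 CPM in LPS+TM7nox. The groups did not overlap, and it fell by 0.81 (SE 0.105, adjusted p = 0.000187), in the same direction as with LPS alone against DMSO.

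Vegfa rose with the compound. It stood at 18.3, 10.7, 9.69 and 13.2 CPM in LPS and at 37.7, 27.6, 37.4 and 36.8 CPM in LPS+TM7nox. No library of the groups overlapped, and the rise was 1.43 (SE 0.207, adjusted p = 0.000443), or 2.69-fold. Hk3 rose by 0.84 (adjusted p = 0.00481), from 55.1 to 79.7 CPM to 109 to 135 CPM, and Pfkp rose by 0.78 (adjusted p = 0.00466). Hk3 and Pfkp had risen in LPS against DMSO as well, while Hk2 and Pfkfb3 moved in opposite directions in the 2 comparisons.

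Slc2a1 (-0.13, adjusted p = 0.595), Slc2a6 (-0.18), Egln1 (0.08), Pfkm (0.07) and Pdk1 (-0.35, adjusted p = 0.577) moved with LPS and were not called here. Hif1a stood at 73.8, 94.4, 97.8 and 88.9 CPM in LPS+TM7nox, overlapping both other treatments, with a change of -0.29 (adjusted p = 0.219). Ldha had -0.26, Pgk1 0.26, Slc16a3 0.19 and Bnip3 0.63 (adjusted p = 0.0831). Eno2 had the second largest upward value, 1.14 (SE 0.365, adjusted p = 0.0532), at a level of 1.54 to 3.50 CPM. With the replicate number as a block, 10 of the 32 were called, 6 higher and 4 lower, and calls over all genes went to 25%. Those added were Eno2 (1.12, adjusted p = 0.0453), Bnip3 (0.61, adjusted p = 0.0374), Aldoa (0.30, adjusted p = 0.0235) and Pdk3 (-0.39, adjusted p = 0.0417).

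Against DMSO, cells in LPS+TM7nox had 9 genes higher and 6 lower, where 47.3% of all genes were called. The median was 0.14 over the 32 genes and -0.0094 over all genes. Vegfa (1.95), Slc2a1 (1.78), Hk3 (1.66), Slc2a6 (1.37) and Pfkp (1.36) rose the most. Pdk1 fell by 2.09, Slc16a1 by 1.25 and Egln1 by 1.21. Pfkm fell by 0.94, Tigar by 0.68 and the brain-type aldolase Aldoc by 0.52. Pfkfb3 remained above DMSO by 0.81 (adjusted p = 0.016), a call lost without LPS+TM7nox replicate 2 (0.53, adjusted p = 0.0639). Pgk1 rose by 0.62, Hk1 by 0.40 and Aldoa by 0.31, the last a call (adjusted p = 0.0322) lost without any of DMSO replicates 2, 3 and 4 or LPS+TM7nox replicates 2 and 3. Hk2 had 0.15 (adjusted p = 0.569), Hif1a 0.25 (adjusted p = 0.164, and 0.39 with adjusted p = 0.0456 without LPS+TM7nox replicate 1), Slc16a3 0.26, Bnip3 0.34 and Ldha -0.24, none called.

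Isoforms of the same step were compared per kilobase of transcript. In LPS+TM7nox, Hk3 stood at 38.3 ± 3.40 CPM per kb of transcript (SD, n = 4), Hk1 at 26.1 ± 2.73 and Hk2 at 10.2 ± 2.88. The lowest Hk3 library lay above the highest of Hk1 and of Hk2, also per kilobase of all exons (25.4 ± 2.26, 12.7 ± 1.33 and 9.59 ± 2.71). In LPS the order of the hexokinases differed by length: per kilobase of transcript Hk1 stood at 23.3 ± 3.31, Hk3 at 21.5 ± 3.19 and Hk2 at 19.8 ± 2.27, all overlapping, and per kilobase of all exons Hk2 had the highest mean at 18.7 ± 2.14. Among phosphofructokinases, Pfkp and Pfkl overlapped in DMSO at 17.5 ± 1.14 and 15.4 ± 3.52 CPM per kb of transcript. In LPS+TM7nox Pfkp stood at 46.0 ± 6.58 and Pfkl at 16.8 ± 1.67, with no overlap by either length. In LPS, Pdk3 stood at 15.5 ± 2.91 and Pdk1 at 1.78 ± 0.709 CPM per kb of transcript, also apart by either length. These orders are a description with no test between genes.

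Other genes of these pathways were read from 3 lists. Of 24 further glycolytic isoforms and transporters, 15 were tested in RNA. With LPS against DMSO, where 42% of all genes tested were called, 1 was higher and 7 lower, the sugar phosphate mutase Pgm2 at 0.48 among the former and the neuronal glucose transporter Slc2a3 at -1.07 and the ADP-dependent glucokinase Adpgk at -0.63 among the latter. In LPS+TM7nox against LPS, where 13.8% of all genes were called, none was called by edgeR, with 1 at an unadjusted p under 0.05 and 1 called by DESeq2. Against DMSO, where 47.3% of all genes were called, LPS+TM7nox had 2 higher (Pgm1 0.64, Pgm2 0.46) and 6 lower, with Slc2a3 at -1.39 and Adpgk at -0.79. The list median was -0.66 in LPS against DMSO.

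Of 16 partners and regulators of HIF, 14 were tested. With LPS 6 were higher and 1 lower, against the same 42% of all genes called in either direction, led by the ubiquitin ligase Siah2 (0.78), which targets Egln hydroxylases, the chaperone Hsp90ab1 (0.60) and the asparagine hydroxylase Hif1an (0.58). LPS+TM7nox had Siah2 higher than LPS by 0.73 (adjusted p = 0.0123) as its only call, where 13.8% of all genes were called. Against DMSO, beside the 47.3% of all genes, it had 5 higher and none lower, with Siah2 at 1.51, Hsp90ab1 at 0.84 and the coactivator Crebbp at 0.57.

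Of 19 HIF targets outside glycolysis, 17 were tested, and they did not move together. With LPS 4 were higher and 4 lower, a share near the 42% of all genes. Edn1 (endothelin 1) stood at 0 to 0.257 CPM in DMSO and 13.2 to 62.1 CPM in LPS, and the collagen prolyl hydroxylase P4ha1 rose by 1.11. The transcriptional repressors Bhlhe40 and Mxi1 fell by 1.64 and 1.51, and the mitophagy receptor Bnip3l fell by 0.48. Where 13.8% of all genes were called, LPS+TM7nox had 3 higher than LPS, namely Bhlhe40 (1.90), the stress-responsive Ndrg1 (1.64) and Bnip3l (0.65), and none lower. Against DMSO it had 5 higher and 4 lower, near the 47.3% of all genes, with Ndrg1 at 2.16 and Mxi1 at -1.61, and with Edn1 at 6.95 to 45.1 CPM.

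Promoters were searched for ACGTG and GCGTG, the cores of the hypoxia response element, on both strands. The windows were those of RefSeq on GRCm38.p6, from 250 bases before to 50 after each start, and all 34 genes matched. Either motif occurred in a window of 29 of the 34 genes (85.3%) and of 46.7% of all 27025 genes. ACGTG occurred for 22 (64.7%, against 21.8%) and GCGTG for 21 (61.8%, against 35.2%). A match describes letters only, and many of these genes are known for their HIF-1 sites.

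The ratio of anti-HuR RIP to RNA asks which of these mRNAs were precipitated with HuR beyond their RNA level. Vhl, Hk2, Slc2a1, Pfkfb3, Slc16a1, Vegfa and Hif1a were higher in RIP than in RNA in all 3 treatments, while the enzymes of the main sequence apart from Eno2, and most remaining genes, were lower. In DMSO, 11 of 33 rows were called higher and 19 lower, where 70.4% of all 14311 genes tested were called. In LPS, 7 were higher and 19 lower (63.7% of all genes), and in LPS+TM7nox 9 were higher and 20 lower (69.9% of all genes). The median log2 ratio was -1.21, -0.84 and -1.02 in the 3 treatments over these rows, and 0.04, -0.06 and -0.09 over all genes. The scaling takes the typical gene as equal in both assays, so the ratios are relative and carry no absolute scale. All 8 macrophage markers were called lower in RIP than in RNA in DMSO too.

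Vhl, the substrate receptor of the ubiquitin ligase that removes HIF-1α, had the highest ratio. Its RNA level in DMSO was 10.2, 8.67, 9.36 and 8.38 CPM, and its RIP level 122, 141, 146 and 184 CPM. The assays lay over a factor of 10 apart, at log2 ratios of 4.14 (SE 0.227, adjusted p = 3.47e-14) in DMSO, 4.25 in LPS and 4.58 in LPS+TM7nox. Its IgG level was 5.97, 7.67 and 8.08 CPM in the 3 treatments, close to the RNA level. Exons of Vhl overlap those of a noncoding gene on the other strand.

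Slc16a1 stood at 169, 196, 174 and 164 CPM in DMSO RNA and at 913, 1003, 1043 and 831 CPM in DMSO RIP. The ratios were 2.55, 2.54 and 2.91 in DMSO, LPS and LPS+TM7nox, and no RNA library reached a RIP library. Hk2 had ratios of 2.03, 1.71 and 2.04, in contrast to Hk1 (-1.71, -1.11 and -1.34) and Hk3 (-1.68, -1.13 and -1.32). Slc2a1 had 1.44, 1.80 and 1.90, in contrast to Slc2a6 (-2.10, -1.503 and -1.77). Slc16a3 had -1.85, -1.58 and -2.01, so that isoforms of the same step stood on opposite sides. Pfkfb3 had 1.82, 1.14 and 1.70, and Pfkfb4 had -0.86, -0.66 and -0.86. The single IgG library of Hk2 also stood above every RNA library of its treatment. Per kb of transcript it stood at 12.7, 34.9 and 20.1 CPM, against at most 10.9, 21.8 and 13.1 in RNA. The Pfkfb3 IgG library did so in LPS alone (34.3, RNA at most 31.4). Those of Slc16a1 and Slc2a1 lay below every RNA library in each treatment. Anti-HuR RIP is set against IgG below.

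Hif1a stood at 188, 226, 217 and 173 CPM in DMSO RIP, above every RNA library, with ratios of 1.58, 1.34 and 2.05. Vegfa had 1.64, 1.10 and 1.60. The Hif1a IgG library stood above every RNA library in LPS and in LPS+TM7nox. It stood at 23.3 and 18.4 CPM per kb of transcript there, against at most 17.8 and 14.3 in RNA, and within the RNA range in DMSO. The Vegfa IgG library did so in LPS+TM7nox alone (11.6, RNA at most 10.9). The prolyl hydroxylases Egln1 and Egln2 were called in none of the 3 treatments, apart from Egln2 in LPS+TM7nox with the replicate block (-0.51, adjusted p = 0.0114). Pdk1 was called higher in DMSO (0.71, adjusted p = 0.0388) and in LPS+TM7nox (0.73, adjusted p = 0.0408), and in LPS (0.64, adjusted p = 0.072) only with the block (0.65, adjusted p = 0.0423). The DMSO call of Pdk1 was lost without RNA DMSO replicate 1 (0.45, adjusted p = 0.152) or replicate 2 (0.74, adjusted p = 0.0548), and without RIP DMSO replicate 3 (0.60, adjusted p = 0.105) or replicate 4 (0.58, adjusted p = 0.113). In LPS+TM7nox it was lost without RIP replicate 1 (0.72, adjusted p = 0.0638) or 2 (0.54, adjusted p = 0.146), or RNA replicate 3 (0.57, adjusted p = 0.135) or 4 (0.65, adjusted p = 0.0979).

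The main sequence showed the reverse. Gapdh stood at 971, 668, 608 and 617 CPM in DMSO RNA and at 173, 103, 110 and 102 CPM in DMSO RIP. Its ratios were -2.42, -1.59 and -1.91, with no overlap. Eno1 had -2.52, -1.44 and -1.62, Pgk1 -2.20, -1.52 and -1.57, and Pkm -2.15, -1.74 and -1.79. Aldoc had -2.33, -1.67 and -1.67, Aldoa -2.05, -1.51 and -1.65, and Gpi1 -1.78, -1.22 and -1.27. Tpi1 had -1.74, -1.15 and -1.58, and Pgam1 -1.21, -0.84 and -1.02. Ldha, the last step to lactate, had -1.63, -0.96 and -1.32. The phosphofructokinases were lower in RIP as well, Pfkl with -1.61, -1.20 and -1.41, Pfkm with -1.46, -1.02 and -0.96, and Pfkp with -1.15, -0.72 and -1.04. The LPS call of Pfkp (adjusted p = 0.0193) was lost with DESeq2 and without any of 4 single libraries (RIP LPS replicates 1 and 2, RNA LPS replicates 3 and 4), and the LPS+TM7nox call of Pfkm (adjusted p = 0.0103) was lost without RIP LPS+TM7nox replicate 1. Bnip3 had -1.69, -0.99 and -1.21.

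The exception in the main sequence was Eno2, at 3.53 (SE 0.412, adjusted p = 3.83e-08) in DMSO, -0.35 in LPS and -0.00 in LPS+TM7nox, the latter 2 not called. Tigar had 0.61 in DMSO (adjusted p = 0.0387, lost without any of RNA DMSO replicates 1 and 3 and RIP DMSO replicates 3 and 4), -0.39 in LPS and 0.06 in LPS+TM7nox. Pdk3 had -0.40, -0.49 and -0.59, of which the last was called (adjusted p = 0.0479) and was lost with DESeq2 and without any of 6 single libraries. The second Aldoa row, at no more than 1.29 CPM in any library, had 1.70, 1.16 (not called) and 1.68. Its exons overlap those of the main Aldoa gene on the same strand, and the LPS+TM7nox call was lost without any of 4 single libraries (1.32, 1.43, 1.48 and 1.42).

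**Figure D3:**
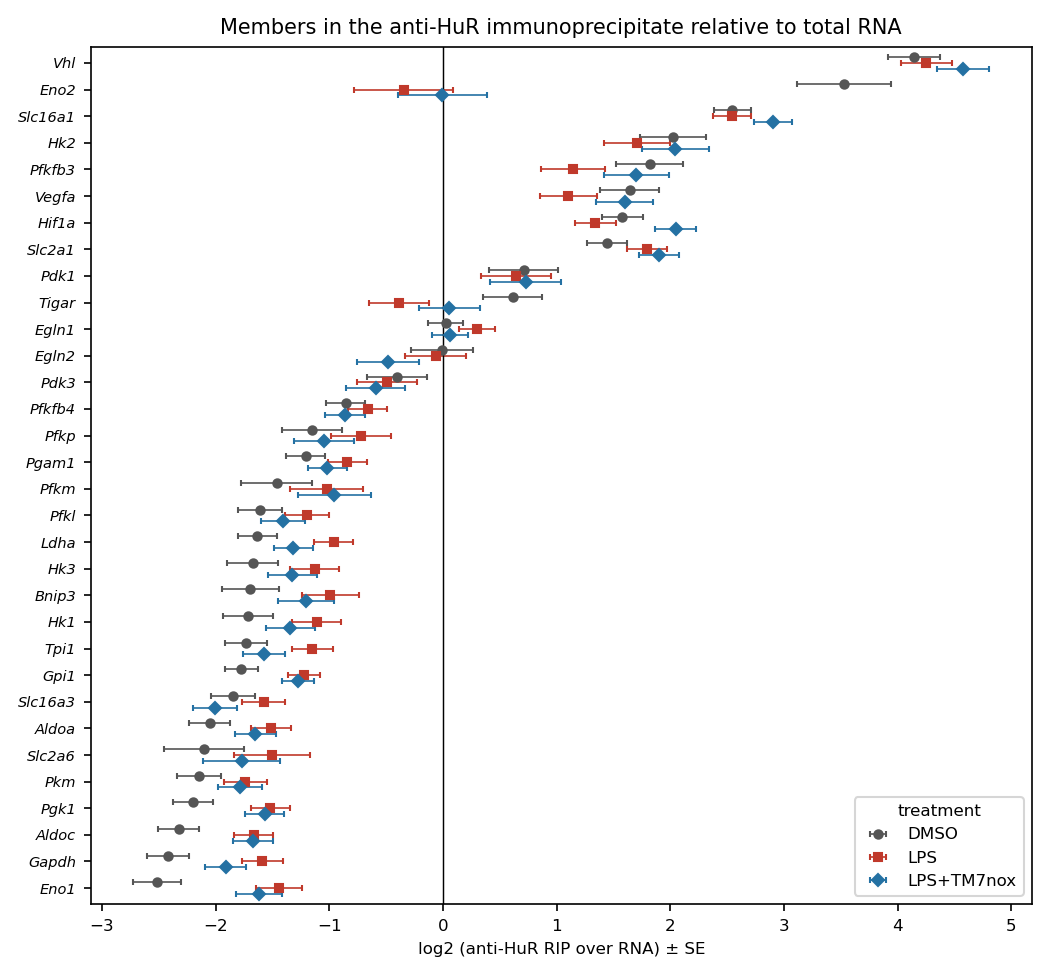
Log2 ratio of anti-HuR RIP to RNA with SE (horizontal axis) for the 32 genes tested, ordered by the ratio in DMSO, with a marker per treatment. Vhl is at 4.14 to 4.58, Eno2 at 3.53 in DMSO alone, and Gapdh and Eno1 lie between -2.52 and -1.44.

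Sequence features of the 3′ UTR, which the choice of genes did not use, differed between the genes on the 2 sides. The 10 genes called higher in DMSO RIP than RNA all held UUUUU and AUUUA in their representative 3′ UTR, with a median length of 2750 bases and a median U share of 29.1%. Of the 19 called lower, 52.6% held UUUUU and 47.4% held AUUUA, with a median length of 887 bases and a U share of 25.9%. Among all 10990 coding genes with a value, 93.6% of those called higher and 70.2% of those called lower held UUUUU, and 86.9% and 61.8% held AUUUA, with median lengths of 2134 and 855 bases. A longer UTR holds any pentamer more often, so length and motif move together here.

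Counts of both motifs differed widely between genes. The Slc16a1 3′ UTR of 2742 bases holds 35 UUUUU and 11 AUUUA (overlaps counted), and that of Hif1a, 3844 bases long, holds 32 and 12. Hk2 has 29 and 10 in 4551 bases, Pdk1 26 and 5 in 3734 bases, and Vhl 15 and 1 in 2069 bases. Slc2a1 has 16 and 2 in 2722 bases, with a U share of 25.6%, below the median of all genes of 29.2%. The 3′ UTRs of Gapdh (178 bases), Eno1 (324 bases) and Pkm (541 bases) hold neither motif. Slc16a3, lower in RIP, has a UTR of 2736 bases with no UUUUU and 2 AUUUA, nearly as long as that of Slc16a1. Pfkp, also lower in RIP, has 21 UUUUU and 9 AUUUA in 1698 bases, with a ratio of -1.15 in DMSO. Across the 32 genes the U share and the DMSO ratio had Pearson's r of 0.52 and Spearman's rho of 0.58. Across all 10990 genes these were 0.26 and 0.27. The genes share libraries and are not independent replicates.

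**Figure D4:**
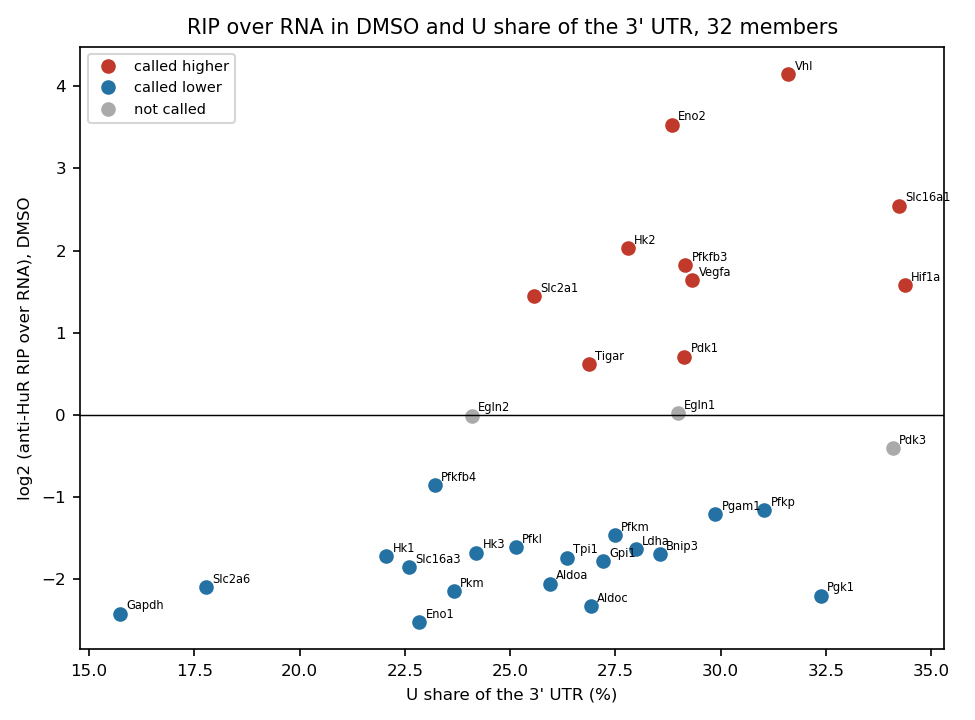
U share of the representative 3′ UTR in percent (horizontal axis) against the log2 ratio of anti-HuR RIP to RNA in DMSO (vertical axis), a point per gene for 32 genes, coloured by call. Slc16a1 and Hif1a lie upper right at U shares of 34.2% and 34.4%, Gapdh lies lower left at 15.7%, and Slc2a1 lies above 0 at 25.6%.

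Anti-HuR RIP was also set against IgG, the control for unspecific precipitation, over 12 RIP and 3 IgG libraries with treatment as a covariate. Vhl (4.66), Slc16a1 (2.92), Slc2a1 (2.14), Vegfa (1.51), Pfkfb3 (1.24), Hif1a (1.24), Hk2 (1.11) and Pdk1 (0.89) were higher with anti-HuR, and 19 of the 33 rows were lower, where 68.1% of all 14973 genes were called. The median was -1.07 over these rows and -0.0014 over all genes. Pkm (-2.12), Eno1 (-2.04), Aldoc (-2.003), Slc2a6 (-1.96), Pfkm (-1.95), Hk1 (-1.95) and Aldoa (-1.94) were the lowest. Hk3 had -1.85, Gpi1 -1.66, Pgk1 -1.65, Pfkl -1.63, Pfkp and Gapdh -1.60, and Tpi1 -1.45. Ldha had -1.34, Slc16a3 -1.14, Pfkfb4 -1.07 and Pgam1 -1.01. The call of Bnip3 (-0.53, adjusted p = 0.0271) was lost with the replicate block (-0.52, adjusted p = 0.053), with DESeq2, without the DMSO IgG library (-0.33, adjusted p = 0.269) and without the LPS+TM7nox IgG library (-0.60, adjusted p = 0.0507). The RIP libraries are those of the ratio to RNA, so the comparisons are not independent.

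Eno2 differed between the references. It stood at 10.8, 18.1, 12.1 and 19.0 CPM in DMSO RIP, at 2.80 CPM in the DMSO IgG library and at 0.424 to 1.72 CPM in DMSO RNA. In LPS it stood at 0.648, 0.735, 0.828 and 1.16 CPM in RIP, at 2.01 CPM in IgG and at 0.842 to 1.37 CPM in RNA. In LPS+TM7nox it stood at 2.76, 0.610, 1.56 and 4.68 CPM in RIP, at 2.92 CPM in IgG and at 1.54 to 3.50 CPM in RNA. All 4 DMSO RIP libraries stood above both references of their treatment, as did replicate 4 in LPS+TM7nox and none in LPS. Over all treatments its difference from IgG was 0.03 (SE 0.58, adjusted p = 0.968). Exons of Eno2 overlap those of Gm66857 on the other strand.

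**Figure D5:**
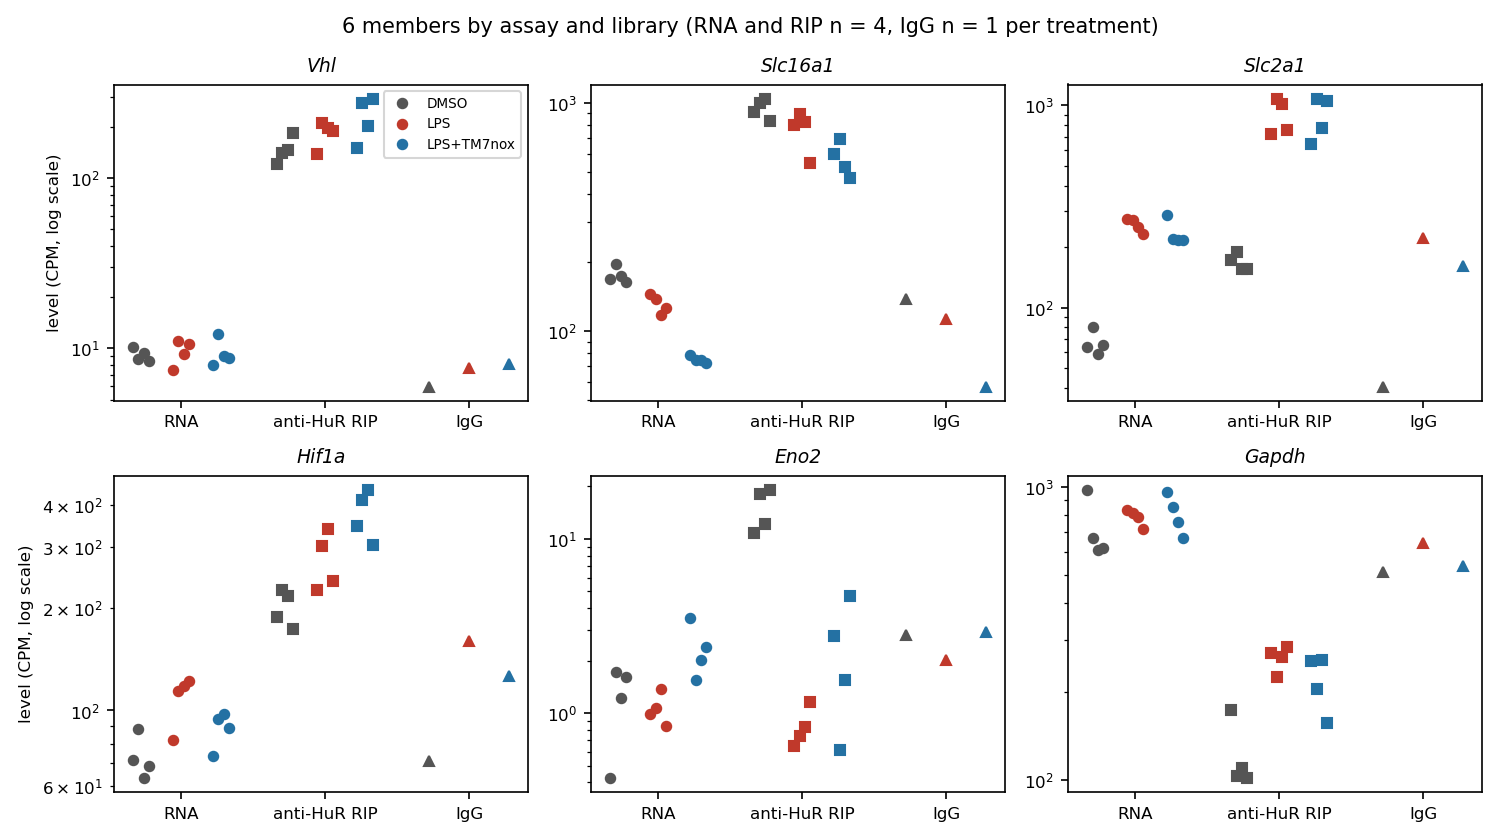
Levels in CPM on log axes of 6 genes in RNA (circles), anti-HuR RIP (squares) and IgG (triangles), a point per library, coloured by treatment. Vhl RIP libraries (122 to 292 CPM) lie far above its RNA and IgG libraries, Gapdh RIP libraries lie below both, and Eno2 RIP libraries are highest in DMSO.

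Within the RIP libraries, LPS was compared with DMSO. Of the 15 rows called higher here, only Pfkfb3, Slc2a1 and Hk2 were also higher in RIP than in IgG. The other 12 were lower than IgG, so their reads are not shown to be HuR-associated. Pfkfb3, Slc2a1 and Hk2 also stood higher in the single LPS IgG library than in the DMSO one. In CPM per kb of transcript, Pfkfb3 went from 2.48 to 34.3, Slc2a1 from 9.16 to 49.9 and Hk2 from 12.7 to 34.9. The part of unspecific precipitation in their RIP rises was not tested. More of the genes were called than in RNA, 15 higher and 5 lower of 33 rows, where 44.7% of all 13614 genes tested were called. The median was 0.51 over these rows and -0.0044 over all genes. Whether the RIP change differs from the RNA change is tested by the interaction below. Pfkfb3 rose by 2.77 (SE 0.278, adjusted p = 8.69e-07), from 32.7, 48.4, 52.1 and 59.7 CPM to 257, 432, 359 and 291 CPM. Slc2a1 rose by 2.38 (adjusted p = 2.83e-07), from 156 to 188 CPM to 726 to 1070 CPM, and Slc2a6 by 2.25 and Hk3 by 1.505. These genes had no overlap between the groups and had also risen in RNA.

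Most enzymes of the main sequence, uncalled in RNA, were called here. Between the single IgG libraries of DMSO and LPS, Eno1 stood at 733 and 1121 CPM, Pgk1 at 206 and 368, Aldoa at 520 and 723, Gapdh at 514 and 642 and Tpi1 at 151 and 147. Of the 8 macrophage markers, 4 were called higher and 1 lower in the same RIP comparison, with a median of 1.00. The part of unspecific precipitation in these rises was not tested. Pgk1 rose by 1.19, Eno1 by 1.16 and Gapdh by 1.07 (adjusted p = 0.000167, 0.00018 and 0.000651), and Gpi1, Pgam1, Aldoa and Tpi1 by 0.51 to 0.70. Gapdh stood at 173, 103, 110 and 102 CPM in DMSO and at 272, 225, 262 and 284 CPM in LPS, with no overlap although DMSO replicate 1 stood above the others. Ldha rose by 0.81, Hk1 by 0.96, Hk2 by 0.89 and Pfkp by 1.15. The Hk2 call (adjusted p = 0.0189) was lost without RIP DMSO replicate 1 (0.69, adjusted p = 0.0794), RIP DMSO replicate 2 (0.78, adjusted p = 0.0723) or RIP LPS replicate 3 (0.79, adjusted p = 0.0607). The Aldoa call (adjusted p = 0.0196) was lost without any of 4 single libraries and the Tpi1 call (adjusted p = 0.0391) without any of 5.

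Eno2 fell the most, by 4.18 (SE 0.448, adjusted p = 1.83e-06), or 18.2-fold, between the values given above. Pdk1 fell by 1.73 (adjusted p = 2.48e-05), from 38.7 to 58.4 CPM to 11.3 to 18.8 CPM, and Tigar by 1.28, Egln1 by 0.90 and the second Aldoa row by 2.37. Hif1a had 0.44 (adjusted p = 0.0568), Bnip3 0.52 (adjusted p = 0.0812), Slc16a3 0.44 (adjusted p = 0.0801) and Vegfa 0.07 (adjusted p = 0.842), none called. With the replicate block 28 rows were called, 22 higher and 6 lower, and 59.3% of all genes. Those added were Aldoc (adjusted p = 0.00635), Hif1a (0.00574), Pdk3 (0.015), Slc16a3 (0.0209), Pkm (0.0272), Pfkl (0.0372), Slc16a1 (0.0384) and Bnip3 (0.0453).

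With LPS+TM7nox against LPS in the RIP libraries, 2 rows were higher and 2 lower, where 16.2% of all genes were called. The median was -0.08 over these rows and -0.03 over all genes. Pfkfb3 stood at 56.2, 140, 80.6 and 75.5 CPM in LPS+TM7nox, below every LPS library, and fell by 1.97 (SE 0.27, adjusted p = 0.000183). Vegfa stood at 34.8, 21.2, 27.3 and 26.6 CPM in LPS and at 94.7, 77.0, 118 and 140 CPM in LPS+TM7nox, with no overlap. It rose by 1.92 (SE 0.272, adjusted p = 0.000244). Both moved in RIP as they had in RNA.

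The other 2 calls lay close to the threshold. Ldha fell by 0.65 (adjusted p = 0.0268), with values of -0.64 to -0.54 and adjusted p of 0.0534 to 0.0812 without any of RIP LPS replicates 1, 3 and 4 and RIP LPS+TM7nox replicates 2 and 4. Eno2 rose by 1.44 (adjusted p = 0.0428), with 0.610 to 4.68 CPM in LPS+TM7nox and overlapping groups. Its change was 0.98 to 1.64, with adjusted p of 0.0526 to 0.14, without any of RIP LPS replicates 1 to 4 and RIP LPS+TM7nox replicates 1 and 4. Without RIP LPS replicate 1, 2 rows were called, with the share of all genes in that fit not given here. Hif1a had 0.40 (adjusted p = 0.14), Hk2 -0.62 (adjusted p = 0.152, and -0.91 with adjusted p = 0.0417 without RIP LPS+TM7nox replicate 4) and Bnip3 0.38. Pgk1 had 0.19, Slc2a1 -0.05, Slc16a3 -0.26 and Pdk1 -0.28. With the replicate block 14 rows were called, 5 higher and 9 lower, and 33.6% of all genes. Those added were Hk2 (-0.71, adjusted p = 0.00245), Hk3 (0.65, adjusted p = 0.00646), Pdk3 (-0.57), Pfkfb4 (-0.61), Hif1a (0.40, adjusted p = 0.0164), Slc16a1 (-0.46), Tpi1 (-0.42), Slc2a6 (-0.44), Pfkp (0.49) and Egln2 (-0.39).

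The interaction asks whether the ratio of RIP to RNA itself changed with treatment. For LPS against DMSO, Eno2 alone was called in the main edgeR fit, with a fall of the ratio by 3.88 (SE 0.591, adjusted p = 0.0032). In that fit 0.0419% of all genes tested, 6 of 14311, were called. The median was 0.37 over the 33 rows and 0.02 over all genes. By the same test 10 rows had an unadjusted p under 0.05. The share of all genes under that cut is not given here, so this count has no background to be read against. The highest values were those of Eno1 (1.07, adjusted p = 0.252), Gapdh (0.83, adjusted p = 0.378), Bnip3 (0.70), Pgk1 (0.68, adjusted p = 0.54) and Ldha (0.67, adjusted p = 0.54), none of them called in the main fit. DESeq2 and edgeR without the filter on low counts each called 2 rows, 1 higher and 1 lower. With the replicate block, where 0.349% of all genes were called, Eno1 was called as well (1.06, adjusted p = 0.0448), and Eno2 was not called with replicates 1 and 2 alone or 3 and 4 alone. Slc2a1 had 0.36, Slc16a3 0.27, Pdk1 -0.07, Hif1a -0.24, Hk2 -0.32, Vegfa -0.54 and Pfkfb3 -0.67.

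For LPS+TM7nox against LPS the change of the ratio was called for none of the 33 rows by edgeR or by DESeq2, where 0.00699% of all genes, 1 of 14311, was called. Hif1a alone had an unadjusted p under 0.05, with 0.71 (SE 0.248, unadjusted p = 0.00872, adjusted p = 0.871), a higher ratio with the compound. The median was -0.10 over the rows and 0.0024 over all genes. Pfkfb3 had 0.56 (SE 0.397), Vegfa 0.50 (SE 0.351), Hk2 0.34 (SE 0.398), Slc2a1 0.10 (SE 0.242) and Pdk1 0.09 (SE 0.437). Pgk1 had -0.05 (SE 0.239), Bnip3 -0.22 (SE 0.348), Ldha -0.36 (SE 0.238) and Slc16a3 -0.43 (SE 0.266). A change of the ratio with the compound was therefore not detectable for these genes at this spread, which does not show that the ratios were equal.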

How the data were processed

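The authors deposited 1 table of raw counts, whole numbers of reads per Ensembl gene in 27 libraries, with no normalization. Per the submitters' processing notes, FastQC 0.11.9, STAR, HTSeq, DESeq2 and GRCm39 were named; the sources used here give neither their roles nor the annotation release or strand setting. Libraries came from 7 ng of RNA with a stranded kit, after harvest of 30 M cells for each sample, per the labels. No molecular identifiers are stated, so PCR copies count as reads.

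Library sizes were scaled by TMM, genes were filtered by filterByExpr with a minimum count of 10, and the two-sided quasi-likelihood test of edgeR (version 4.0.16, under R 4.3.3) was fitted. P-values were adjusted by Benjamini-Hochberg over all genes tested and called under 0.05. RNA and RIP libraries were each fitted over 12 libraries, their ratio and its change over 24, and anti-HuR against IgG over 15. The SE is the log2 change divided by the root of F. The RNA fit and the RIP fit were tested on simulated data for LPS against DMSO, with 200 genes changed, fewer than the data called. The fits of the ratio, of its change and of anti-HuR against IgG were not tested in this way. No pair of replicates agreed within sampling noise, with a chi-square per gene of 38.0 to 213 over 36 pairs. DESeq2 1.42.0, its size factors in edgeR, no filter, the replicate block, replicates 1 and 2 or 3 and 4 alone, and leaving out each library were alternatives, and a level per kilobase of transcript was added after seeing the data. Between every pair of groups compared, same-numbered libraries deviated together, with correlations of 0.244 to 0.62 over 18480 genes. Differently numbered libraries reached 0.463, between RNA LPS and RNA LPS+TM7nox. They passed the lowest same-numbered value between RNA DMSO and RNA LPS (0.266 against 0.247). The same held between RNA DMSO and RIP DMSO (0.269 against 0.244). The labels give the numbers, not what they mark, so the fits without the block are the main ones.

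The text accounts for all 34 genes. It gives a panel of 11 (Hif1a, Egln3, Slc2a1, Hk2, Pfkfb3, Pgk1, Ldha, Pdk1, Slc16a3, Bnip3, Vegfa) in every comparison, any gene called with a log2 change of at least 1, and from the 3 pathway lists up to 3 called genes per direction with a mean of at least 5 CPM in RNA, of which 1 is not reported here. The genes and lists were chosen with earlier results of these data known. Identifiers were matched to GENCODE M39 (51731 of 55483, 93.2%, and all 35 rows here). Of 11213 coding genes tested, 98.0% had an annotated 3′ UTR.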

Additional observations from a re-analysis of the deposited data

Results flagged for a closer look

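In 14 of the 198 groups of 4 libraries examined, the highest or lowest library lay apart from the other 3 by more than Dixon's 95% limit; chance alone gives about 1 in 20 groups. In DMSO RNA, replicate 1 stood apart for Eno1 (1520 CPM, others 660 to 697), Gapdh (971 CPM, others 608 to 668) and Pdk3 (14.4 CPM, others 31.4 to 34.3). In DMSO RIP, replicate 1 was high for Gapdh (173 CPM, others 102 to 110) and Ldha (252 CPM, others 155 to 168), and replicate 4 was low for Pdk3 (11.8 CPM, others 22.8 to 23.2).

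In LPS RNA, replicate 1 was high for Pkm (2340 CPM, others 1608 to 1726) and Pfkfb4 (10.5 CPM, others 9.03 to 9.22) and low for Slc2a6 (34.9 CPM, others 56.5 to 58.6), and replicate 2 was high for Ldha (710 CPM, others 615 to 629). In LPS+TM7nox RNA, replicate 1 was high for Pkm (2477 CPM, others 1564 to 1709), Pgk1 (535 CPM, others 399 to 417) and Slc2a1 (288 CPM, others 215 to 219), and replicate 2 was low for Vegfa (27.6 CPM, others 36.8 to 37.7). Replicate 1 was the library apart in 11 of these 14 groups.

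The effect of LPS on Eno2 differed between RIP and RNA, with an interaction of -3.88 on the log2 scale by edgeR's quasi-likelihood test. Its RIP libraries lay above its RNA libraries in DMSO and overlapped them in LPS.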

How the results depend on the processing

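Of 176 counts of called genes over the alternatives, 160 stayed within 1.5 times the reported count, and of 2578 log2 changes 2469 kept their direction and their side of the threshold. With replicates 1 and 2 alone the counts were 5 for RNA LPS against DMSO, 1 for RNA LPS+TM7nox against LPS, 9 for RNA LPS+TM7nox against DMSO and 2 for RIP LPS+TM7nox against LPS. With replicates 3 and 4 alone they were 21 for the first, 12 for the second and 2 for the last. The replicate block gave 10 for RNA and 14 for RIP in LPS+TM7nox against LPS and changed no call other than those given with the results. The interaction for LPS had 2 calls with DESeq2, without the filter and with the block, and 0 with either pair of replicates. Leaving out single libraries gave 11 to 16 in RNA and 17 to 22 in RIP for LPS against DMSO, and 6 to 7 in RNA and 2 to 5 in RIP for LPS+TM7nox against LPS. The share of all genes called is not given here for the fits with fewer libraries. Their counts can therefore not be read as particular to these genes.

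Signs reversed for changes that were not called with all libraries. In RNA LPS against DMSO, Bnip3 was 0.039 with replicates 1 and 2, and Slc16a3 was -0.25 (adjusted p = 0.04, past the threshold) and Ldha -0.028 with replicates 3 and 4; in RNA LPS+TM7nox against DMSO, Ldha was 0.0065 with replicates 1 and 2 and Bnip3 -0.19 with replicates 3 and 4. In RIP with replicates 3 and 4, Vegfa was -0.22 for LPS against DMSO and Slc2a1 0.047 for LPS+TM7nox against LPS. With single libraries left out, Slc16a3 ranged from -0.047 to 0.15 and Ldha from -0.035 to 0.073 in RNA LPS against DMSO, Vegfa from -0.15 to 0.29 in RIP LPS against DMSO, and Slc2a1 from -0.15 to 0.084 in RIP LPS+TM7nox against LPS. The cause was not tested; fits with 2 libraries per group hold fewer samples. Egln3 and Ldhb had too few reads to be tested, and 1 IgG library per treatment allows no test of HuR precipitation within a treatment.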
